A study of Mus musculus with 12 samples.

Results

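Solute carriers are the membrane proteins, named Slc with a family number, that move amino acids, sugars, metals, nucleosides and organic ions across the plasma membrane and the membranes of organelles. Transcripts of the detectable Slc genes were compared among mouse fibroblasts, embryonic stem cells and induced pluripotent stem cells on Illumina bead arrays. Members were the probes whose platform symbol begins with Slc and a digit, leaving out Slc2a1, Slc2a3 and Slc22a18, and that reached a detection p below 0.05 on each of the 3 arrays in at least 1 group. The detection p compares the brightness of a probe with that of the negative control probes on the same array. The rule kept 254 of 648 probes, which stand for 183 of the 353 Slc genes on the array, and these sat among 10096 genes tested in all. By substrate, 29 of the 183 carry amino acids, 20 carry iron or zinc, 29 belong to the Slc25 family of mitochondrial carriers and 105 fall under other substrates. The symbols Slc7a6os, Slc4a1ap, Slc9a3r1 and Slc9a3r2 meet the rule but name an opposite-strand gene, an adaptor and scaffold proteins rather than carriers, and all 4 are counted under other substrates.

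The study held 4 groups of 3 arrays each. MEF were male embryonic fibroblasts of the OG2 background, mice that carry a green fluorescent protein transgene driven by the Oct4 promoter. ESC were OG2 embryonic stem cells from a mix of females and males. iPS4F were male cells reprogrammed with Oct4, Sox2, Klf4 and c-myc, and iPS6F were male cells given those factors together with Brg1 and Baf155, which are subunits of the BAF chromatin remodelling complex. The labels used here give neither an age, nor the number of clones behind an iPS group, nor the way the factors were delivered. Separate cultures are not stated for the arrays of a group, so a p-value here describes the scatter of these arrays, and that scatter may be technical only.

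The labels were checked against marker genes. All 6 pluripotency markers (Pou5f1, Nanog, Esrrb, Dppa5a, Zfp42 and Tdgf1) were detected on every ESC, iPS4F and iPS6F array, where their summed intensity ran from 18000 to 22400, against 18 to 26.1 in MEF. The 7 fibroblast markers summed to 26400 to 29600 in MEF, 23.9 to 32.5 in ESC, 71.1 to 75.4 in iPS4F and 37.8 to 51.6 in iPS6F. All 9 tested macrophage markers were detected on every MEF array, and 8 of them were lower in each pluripotent group. The lysozyme gene Lyz2 had a mean log2 intensity of 9.61 in MEF and 4.15 in ESC, while the complement gene C1qb had 7.16 and 4.13. Laptm5 was the macrophage marker that ran the other way, and because of it the summed macrophage list covered 1480 to 1750 in MEF and 1120 to 2040 on the pluripotent arrays. The dimmest array, ESC 2, had a mean raw intensity of 138.9 and the brightest, iPS4F 1, one of 236.7. An array reads a bulk culture, so fewer cells of a type and less RNA per cell cannot be told apart.

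Carriers set which nutrients a cell can take up or release. Mouse embryonic stem cells are known to depend on threonine and one-carbon metabolism, and dividing cells need a steady supply of iron and zinc. The Slc7, Slc38, Slc1 and Slc6 families bring amino acids into the cell. Slc39 (ZIP) proteins bring zinc, and in some cases iron, into the cytosol, and Slc30 (ZnT) proteins move zinc out of the cytosol into organelles or out of the cell. Slc25 proteins exchange nucleotides, amino acids, phosphate and metals across the inner mitochondrial membrane.

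Detection differed by group, and the arrays themselves detected from 14107 probes (ESC 2) to 17741 (iPS4F 1). Of the 183 members, 89 were detected on all 12 arrays, beside 6444 of the 10096 genes tested. In MEF alone, 28 members were detected on all arrays, and 20 were detected in ESC, iPS4F and iPS6F but not in all MEF arrays. ESC alone held 2 members, iPS4F alone 6 and iPS6F alone 3. The same group patterns were not counted over all genes. On all 12 arrays, 13 amino acid carriers, 11 iron and zinc carriers, 22 mitochondrial carriers and 43 of the others were detected. The members were selected on these detection values, which are given as a description. Just inside the threshold were a probe for Slc1a1, whose worst detection p in its best group was 0.0491, and probes for Slc30a9 and Slc25a29 at 0.0481. Just outside were Slc26a4 at 0.0502, a second Slc1a5 probe at 0.0524 and Slc37a2 at 0.0545.

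Levels below are mean log2 intensities ± SD over 3 arrays after background correction, with 16 added before the log. Fold changes of dim genes are understated on that scale. Differences are log2 ± SE from one limma model of all 12 arrays, and a gene is said to be higher or lower where its p, adjusted over all 10096 genes, fell under 0.05. In ESC, 60 members were higher and 74 lower than in MEF, so 73.2% were called, beside 76.5% of all genes (40.3% higher and 36.3% lower). In iPS4F, 67 were higher and 79 lower than in MEF, 79.8% of members beside 78.9% of all genes (39.8% higher and 39.1% lower). In iPS6F, 71 were higher and 78 lower than in MEF, 81.4% beside 78.6% (39.2% higher and 39.4% lower). All of these shares lay close to the share for all genes, so the carriers as a whole changed about as often as other genes. A member that passed the detection rule through 1 group was selected for its brightness there, which favours a difference from the others. These counts are therefore read as a description. The 89 members on all 12 arrays would be kept by the rule through any group. Of them, 29 were higher and 36 lower in ESC than in MEF, 73.0% (32.6% higher and 40.4% lower). Of the 6444 genes detected on all 12 arrays, 78.5% were called (46.0% higher and 32.6% lower). The same 89 gave 34 higher and 40 lower in iPS4F than in MEF, 83.1% beside 79.3% (42.9% higher and 36.4% lower). They gave 35 higher and 41 lower in iPS6F, 85.4% beside 79.8% (42.7% higher and 37.1% lower). With arrays scaled to their median in place of quantile normalisation, 29.1% of the called members were higher in ESC than in MEF, against 44.8% in the main analysis.

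The pluripotent groups lay closer to each other than to MEF. Between iPS4F and ESC, 34 members were higher and 37 lower, 38.8% of members beside 42.7% of all genes (17.8% higher and 24.9% lower). Between iPS6F and ESC, 37 were higher and 39 lower, 41.5% beside 45.8% (17.8% higher and 28.0% lower). The split between higher and lower depended on the scaling: of the called members, 90.8% rose from ESC to iPS4F with median scaling where 47.9% did in the main analysis, and 80% rose from ESC to iPS6F where 48.7% did. That scaling moved the median of all genes to 0.39 in iPS4F minus ESC and to 0.09 in iPS6F minus ESC, where the main analysis had -0.05 and -0.07. Median-scaled differences of single genes below, and their adjusted p-values, include such a shift unless stated otherwise. Between iPS6F and iPS4F, 1 of 183 members passed, 0.546% beside 1.16% of all genes (0.396% higher and 0.763% lower). By the same limma test 23 members had an unadjusted p under 0.05, and the share of all genes at that threshold was not counted. Among the 89 members on all 12 arrays, 19 were higher and 24 lower in iPS4F than in ESC, 48.3% beside 48.5% of genes detected on all 12 arrays (18.2% higher and 30.3% lower). The count was 22 higher and 25 lower in iPS6F against ESC, 52.8% beside 52.7% (18.5% higher and 34.2% lower), and 1 lower in iPS6F against iPS4F, 1.12% beside 1.21% (0.372% higher and 0.838% lower). The comparisons with MEF share the MEF arrays and the comparisons with ESC share the ESC arrays, so their values are given side by side and not as independent evidence.

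**Figure D1:**
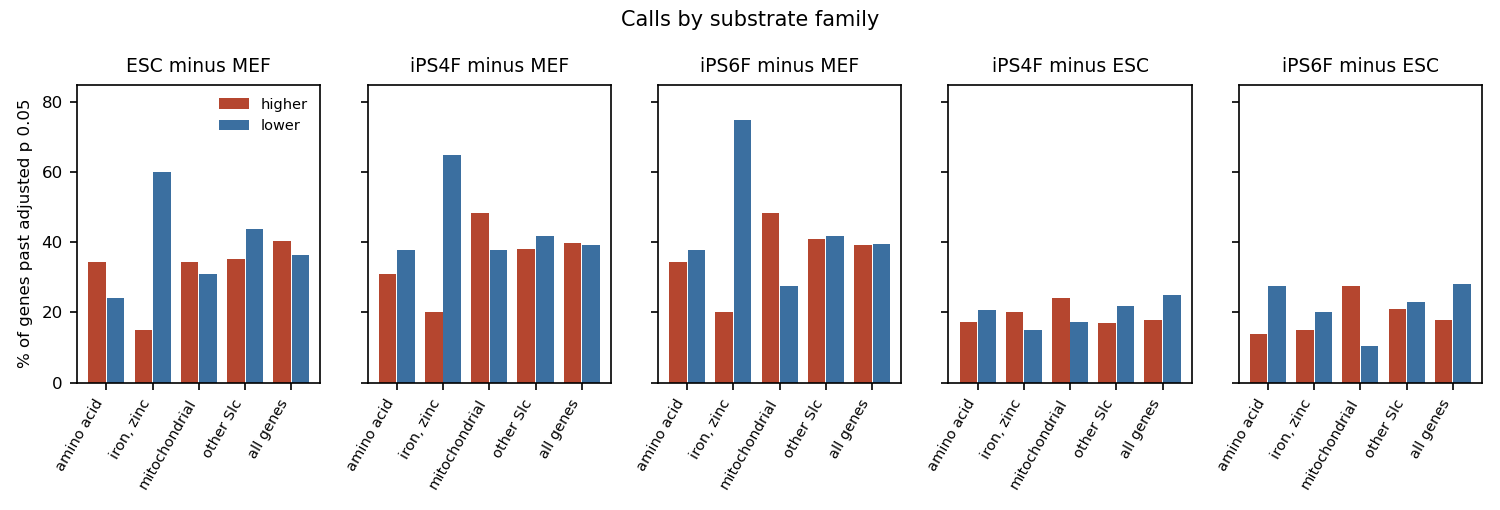
Percent of genes past an adjusted p of 0.05, higher (red) and lower (blue), in each substrate family and over all genes tested, for 5 comparisons under quantile normalisation. In the 3 comparisons with MEF the iron and zinc carriers had 60%, 65% and 75% of 20 members lower. With median scaling the lower members outnumbered the higher ones in none of these 3 substrate families between an iPS group and ESC, and among the mitochondrial carriers 4 were higher and 10 lower in ESC than in MEF.

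Promoters from RefSeq (GRCm38.p6) are shown for 4 members that separated both iPS groups from ESC and were chosen with their values known. On the probe used, Slc25a36, Slc38a2 and Slc35f2 exceeded ESC in both iPS groups, and Slc38a5 was lower. For Slc38a2 the difference rests on 1 probe, as given below. Each sequence is the 250 bases before the annotated start, 5′ to 3′ on the strand of the gene, and capitals mark CACGTG, the E-box, or GGGCGG, the GC box, on either strand.
Slc25a36, chr9:97111042-97111291, minus strand: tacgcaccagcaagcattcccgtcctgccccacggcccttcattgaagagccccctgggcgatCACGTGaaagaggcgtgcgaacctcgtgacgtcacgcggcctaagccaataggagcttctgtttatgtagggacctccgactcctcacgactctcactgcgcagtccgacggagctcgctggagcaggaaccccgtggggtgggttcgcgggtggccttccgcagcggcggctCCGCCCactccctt
Slc38a2, chr15:96699729-96699978, minus strand: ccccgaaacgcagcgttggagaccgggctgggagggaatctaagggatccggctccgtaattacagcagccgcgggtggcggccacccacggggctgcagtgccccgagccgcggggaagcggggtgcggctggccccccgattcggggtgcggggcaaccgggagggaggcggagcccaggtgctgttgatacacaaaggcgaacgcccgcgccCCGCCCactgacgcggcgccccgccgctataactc
Slc35f2, chr9:53771285-53771534, plus strand: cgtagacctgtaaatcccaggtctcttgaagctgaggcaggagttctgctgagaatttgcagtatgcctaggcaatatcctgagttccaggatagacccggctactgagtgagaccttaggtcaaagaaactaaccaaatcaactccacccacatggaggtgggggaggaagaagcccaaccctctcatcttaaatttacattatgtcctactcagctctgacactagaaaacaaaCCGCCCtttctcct
Slc38a5, chrX:8271131-8271380, plus strand: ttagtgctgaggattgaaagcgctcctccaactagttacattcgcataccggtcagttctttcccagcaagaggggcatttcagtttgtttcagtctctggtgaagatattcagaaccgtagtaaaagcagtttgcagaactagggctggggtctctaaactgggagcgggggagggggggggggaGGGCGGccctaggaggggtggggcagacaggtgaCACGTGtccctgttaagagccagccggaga
All 4 windows held 1 GC box, and those of Slc25a36 and Slc38a5 also held 1 E-box, although the first gene was higher and the second lower in iPS cells. The table matched 149 of the 183 members. A GC box was found on either strand in 64.4% of their windows, in 60.9% of the 8143 windows of tested genes and in 32.9% of all 27025 windows. The E-box, bound by Myc and by other factors of its class, was found in 12.1% of member windows, 8.44% of those of tested genes and 6.05% of all. TGATGNAA, the core of the amino acid response element read by Atf4, was found in 3.36% of member windows and 1.94% of those of tested genes, and among the amino acid carriers it lay before Slc7a11 and Slc7a7. TGCNCNC, the core of the metal response element read by Mtf1, is short enough to be found in 49.0% of member windows and 53.1% of those of tested genes. Matches to different motifs may share bases, and a match is a description of the sequence, not of binding.

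Iron and zinc carriers were mostly lower in the pluripotent cells, and the iron exporter Slc40a1 was the 1 member called in all of the pairwise comparisons of the 4 groups. Against MEF, 3 of the 20 rose and 12 fell in ESC, 4 rose and 13 fell in iPS4F, and 4 rose and 15 fell in iPS6F. That is 75%, 85% and 95% called, beside 76.5%, 78.9% and 78.6% of all genes. The median log2 difference of the 20 was -0.48, -0.54 and -0.60, against 0.08, 0.04 and 0.03 over all genes. Among the 11 that were detected on all 12 arrays, 1 was higher and 8 lower in ESC, 1 and 9 in iPS4F, and 1 and 10 in iPS6F, where 32.6%, 36.4% and 37.1% of all genes detected on 12 arrays were lower. With median scaling, 2 were higher and 12 lower in ESC, 4 and 11 in iPS4F, and 2 and 12 in iPS6F, so the direction held there. The macrophage markers named above fell along with these carriers, and their part in the counts was not tested.

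Slc40a1 encodes ferroportin, the protein through which cells release iron and through which macrophages recycle it. Its log2 intensity was 9.79, 9.55 and 9.59 on the MEF arrays, 5.76, 5.99 and 5.85 on the ESC arrays, 7.83, 7.74 and 7.67 on the iPS4F arrays and 6.59, 6.47 and 6.61 on the iPS6F arrays. No 2 groups overlapped, and the order from high to low was MEF, iPS4F, iPS6F, ESC. The difference was -3.78 ± 0.11 in ESC minus MEF (13.7-fold lower, adjusted p 4.62e-15), -1.90 ± 0.11 in iPS4F minus MEF (3.73-fold lower, 4.44e-11) and -3.09 ± 0.11 in iPS6F minus MEF (8.49-fold lower, 6.19e-14). Both iPS groups had more of the transcript than ESC did, by 1.88 ± 0.11 in iPS4F (adjusted p 2.89e-09) and by 0.69 ± 0.11 in iPS6F (6.98e-05). It was the 1 member past the threshold between the iPS groups, at -1.19 ± 0.11 in iPS6F minus iPS4F (2.28-fold lower, adjusted p 1.02e-05). Over the 20 alternatives in the analysis that difference ran from -1.58 to -0.82, with adjusted p from 2.47e-06 to 0.000883.

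The fibroblast markers were read beside it. On a linear scale with the added constant removed, Slc40a1 in ESC, iPS4F and iPS6F was at 5.40%, 25.3% and 9.96% of its MEF level, and the sum of the fibroblast markers was at 0.105%, 0.262% and 0.158%. Both followed the order iPS4F, iPS6F, ESC. Of the 7 fibroblast markers, the ESC arrays detected 2, 2 and 0, the iPS4F arrays 4, 3 and 5 and the iPS6F arrays 3, 3 and 2. The sums therefore include undetected markers, most of all in ESC. Lox, an enzyme that crosslinks collagen, had 5.36 ± 0.19 in iPS4F and 4.77 ± 0.13 in iPS6F (difference -0.59 ± 0.12, adjusted p 0.0187), and it was the 1 fibroblast marker of 7 past the threshold between the iPS groups. None of the 9 macrophage markers passed there by limma. C1qa, C1qb, C1qc, Adgre1, Tyrobp and Fcer1g were undetected on all iPS arrays. Laptm5 was detected on all of them, and Lyz2 on 1 array of each iPS group. Csf1r was detected on 2 of 3 iPS4F arrays and 0 of 3 iPS6F arrays. How far residual fibroblast or macrophage transcripts enter the Slc40a1 difference was not tested.

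**Figure D2:**
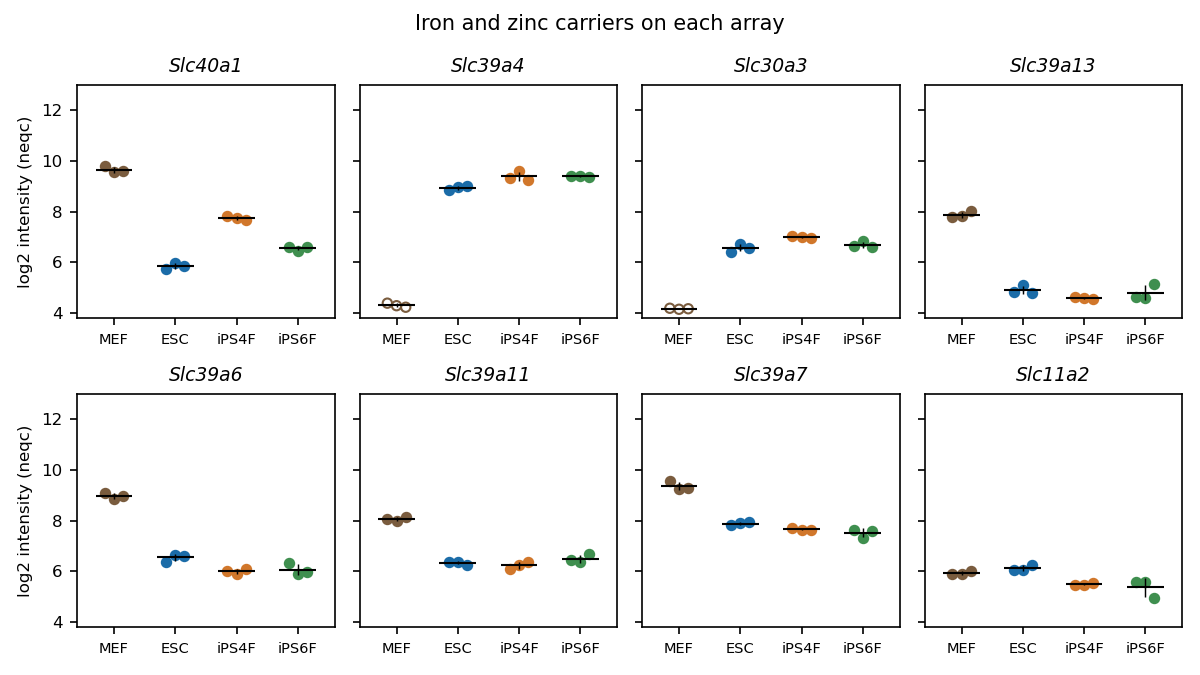
Normalised log2 intensity of 8 iron and zinc carriers on each array, with the group mean (bar) and SD (line). Filled points mark groups in which the probe was detected on all 3 arrays and open points the others. Slc40a1 stepped from 9.64 in MEF to 7.74 in iPS4F, 6.56 in iPS6F and 5.87 in ESC, and Slc39a4 and Slc30a3 were the carriers that were high in all pluripotent cells and dim in MEF.

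Zinc importers of the Slc39 family divided. Slc39a4, the ZIP4 protein that takes up dietary zinc in the gut, read 4.40, 4.30 and 4.24 on the MEF arrays, of which 1 detected it, and 8.84, 8.96 and 9.01 in ESC. It read 9.33, 9.58 and 9.25 in iPS4F and 9.42, 9.40 and 9.37 in iPS6F. Every pluripotent array stood far above every MEF array, and the difference was 4.62 ± 0.11 in ESC (24.6-fold, adjusted p 3.93e-16), 5.07 ± 0.11 in iPS4F and 5.08 ± 0.11 in iPS6F. A second kept probe of Slc39a4 gave 0.02 in ESC minus MEF, 1.10 in iPS4F minus MEF and 1.25 in iPS6F minus MEF, so the probes differed in ESC. With the mean of both probes, the ESC minus MEF difference was 2.32.

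Slc39a13, Slc39a6, Slc39a11 and Slc39a7 ran the other way. Slc39a13 (ZIP13), which supplies zinc from vesicles and is known for its role in connective tissue, read 7.79, 7.82 and 8.01 in MEF and 4.85, 5.10 and 4.81 in ESC, a difference of -2.96 ± 0.14 (7.76-fold lower, adjusted p 3.19e-12). In iPS4F and iPS6F its means were 4.60 ± 0.04 and 4.80 ± 0.30, and its second probe gave smaller falls of -1.37, -1.55 and -1.59 in the 3 groups. Slc39a6 (ZIP6), a plasma membrane importer, had 8.96 ± 0.12 in MEF and 6.56 ± 0.15 in ESC (-2.40 ± 0.13, 5.27-fold lower). Slc39a7 (ZIP7) releases zinc from the endoplasmic reticulum, and it had 9.35 ± 0.17 in MEF and 7.88 ± 0.07 in ESC, with 7.67 ± 0.03 in iPS4F and 7.52 ± 0.16 in iPS6F. Slc39a11 (ZIP11) fell by 1.72 on the log2 scale in ESC, by 1.83 in iPS4F and by 1.56 in iPS6F. These 4 were named by a rule that took only calls whose arrays did not overlap with those of MEF. Slc39a3, Slc39a12 and Slc39a1, further ZIP importers, were lower in ESC by at least 1.58-fold, by at least 1.13-fold and by 0.31 on the log2 scale, the last at an adjusted p of 0.0461 with overlapping arrays and at 0.147 with median scaling.

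Zinc exporters also divided. Slc30a3 (ZnT3), best known for loading zinc into synaptic vesicles, was undetected in MEF at 4.20, 4.16 and 4.18, and read 6.43, 6.71 and 6.58 in ESC. The difference was at least 4.48-fold in ESC, 6.02-fold in iPS4F and 4.86-fold in iPS6F. Such a bound replaces each dim array's value, where it is lower, by that array's lowest detected probe before the means are compared. Slc30a5 (ZnT5) and Slc30a7 (ZnT7), which fill the secretory pathway with zinc, were lower in ESC than in MEF by -1.38 ± 0.14 and -1.05 ± 0.12. Slc30a5 stood higher in iPS4F than in ESC (7.89 ± 0.07 against 7.33 ± 0.09, adjusted p 0.00452). Slc30a1 (ZnT1), the plasma membrane exporter, was lower in ESC by -0.52 ± 0.14 (adjusted p 0.0026). Slc30a6, Slc30a9, Slc30a2 and Slc39a10 had adjusted p-values of 0.067, 0.169, 0.23 and 0.581 in ESC minus MEF.

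The remaining members carry iron and other metals with protons, or heme. Slc11a2 (DMT1), which moves ferrous iron out of endosomes and across the gut, had 5.95 ± 0.07 in MEF and 6.13 ± 0.11 in ESC, with 5.50 ± 0.05 in iPS4F and 5.38 ± 0.37 in iPS6F. It was lower than ESC in iPS4F by 0.64 ± 0.15 (adjusted p 0.00213) and in iPS6F by 0.75 ± 0.15 (0.000492). With median scaling the iPS4F difference was 0.00, or -0.39 less the median of all genes. The second probe of Slc11a2 gave 0.10 and 0.34 in the same comparisons, so its probes opposed each other and no direction is given for the gene. Slc11a1 (NRAMP1), the phagosomal metal carrier of macrophages, was higher in ESC than in MEF by 0.92 ± 0.19 on the probe used, while its other 2 probes gave -0.11 and -0.34 and the call was lost with median scaling (adjusted p 0.158). Slc48a1 (HRG1), which moves heme out of lysosomes, had 8.15 ± 0.29 in MEF and 7.63 ± 0.18 in ESC, with 7.29 ± 0.21 in iPS4F and 6.97 ± 0.11 in iPS6F. Slc39a14 and Slc39a8, importers of iron and zinc, were on the array but were not detected in any group by the rule.

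Non-carrier genes of iron and zinc handling moved in both directions, 5 of 15 tested higher and 5 lower in ESC than in MEF, 6 and 6 in iPS4F, and 7 and 5 in iPS6F, where 76.5%, 78.9% and 78.6% of all genes were called. The transferrin receptor gene Tfrc, which imports iron bound to transferrin, rose from 6.04 ± 0.11 in MEF to 10.90 ± 0.13 in ESC and to 11.34 in both iPS groups (ESC minus MEF 4.86 ± 0.12, adjusted p 7.88e-16). The ferritin heavy chain gene Fth1 fell by 0.54 ± 0.11 in ESC. Heph, a ferroxidase that works beside ferroportin, had 5.31 ± 0.28 in MEF, was undetected in ESC at 4.23 and had 4.84 and 4.81 in iPS4F and iPS6F. Mtf1, the zinc-sensing transcription factor, had 5.73 ± 0.10 in MEF and 7.58 ± 0.13 in ESC, with 6.79 ± 0.06 in iPS4F and 6.97 ± 0.25 in iPS6F. Ncoa4, the receptor that sends ferritin to lysosomes, was higher in iPS4F and iPS6F than in ESC by 1.12 ± 0.15 and 1.53 ± 0.15.

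Amino acid carriers showed large changes in single genes with no common direction. Against MEF, 10 of the 29 rose and 7 fell in ESC, 9 rose and 11 fell in iPS4F, and 10 rose and 11 fell in iPS6F. That is 58.6%, 69% and 72.4% called, beside 76.5%, 78.9% and 78.6% of all genes. Their median differences were 0.12, 0.09 and 0.09, close to those of all genes. With median scaling 4 were higher and 9 lower in ESC. Among the 13 detected on all 12 arrays, 4 were higher and 3 lower in ESC, 6 and 6 in iPS4F, and 5 and 6 in iPS6F. These are 53.8%, 92.3% and 84.6% called, beside 78.5%, 79.3% and 79.8% of all genes detected on 12 arrays. Slc7a3 was the highest of the family in all 3 comparisons with MEF, and Slc1a4 or Slc6a9 the lowest.

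Slc7a3 (CAT3) imports arginine and lysine. It read 7.60, 7.83 and 7.87 in MEF and 10.40, 10.28 and 10.40 in ESC, with 10.16, 10.31 and 10.20 in iPS4F and 9.86, 10.03 and 10.05 in iPS6F. Every pluripotent array lay above every MEF array, and the differences from MEF were 2.60 ± 0.11 in ESC (6.05-fold, adjusted p 7.07e-13), 2.46 ± 0.11 in iPS4F and 2.22 ± 0.11 in iPS6F. Slc7a3 lies on the X chromosome, and the ESC alone came from both sexes. The male iPS groups differed from the male MEF by the values above, and the part of sex in the ESC difference was not tested. Slc7a7, the y+LAT1 light chain that exchanges cationic for neutral amino acids, had 4.39 ± 0.23 in MEF, where 2 of 3 arrays detected it, and 6.18 ± 0.24 in ESC, 6.32 ± 0.20 in iPS4F and 6.36 ± 0.23 in iPS6F (ESC minus MEF 1.80 ± 0.16, adjusted p 1.65e-08). Slc7a2, a further cationic carrier, had a difference of -0.92 ± 0.13 in ESC minus MEF.

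Slc1a4, Slc1a3 and Slc6a9 were the members of the family lowest against MEF in all 3 pluripotent groups. Slc1a4 (ASCT1), which exchanges alanine, serine and cysteine, read 8.30, 8.26 and 8.38 in MEF and 5.87, 6.28 and 6.07 in ESC (-2.24 ± 0.14, 4.71-fold lower, adjusted p 1.59e-10). Slc1a3 (GLAST), a glutamate carrier, had 10.08 ± 0.10 in MEF and 8.40 ± 0.10 in ESC, and its means in iPS4F and iPS6F were 8.24 and 8.19. Slc6a9 (GlyT1), which imports glycine, stepped down through the groups. It read 8.29, 8.51 and 8.57 in MEF, 6.45, 6.29 and 6.47 in ESC, 5.60, 5.29 and 5.34 in iPS4F and 4.92, 4.88 and 5.25 in iPS6F. None of its groups overlapped, and it was lower than in ESC by -0.99 ± 0.13 in iPS4F (adjusted p 1.42e-05) and by -1.39 ± 0.13 in iPS6F (3.42e-07), while iPS6F and iPS4F did not pass against each other. With median scaling the iPS4F minus ESC difference of Slc6a9 was -0.35 at an adjusted p of 0.233, or -0.74 less the median of all genes. Slc6a6, the taurine carrier, was higher in ESC than in MEF by 0.70 ± 0.12 and had 9.32 and 9.35 in the iPS groups. With median scaling the Slc6a6 difference was 0.38 at an adjusted p of 0.191.

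**Figure D3:**
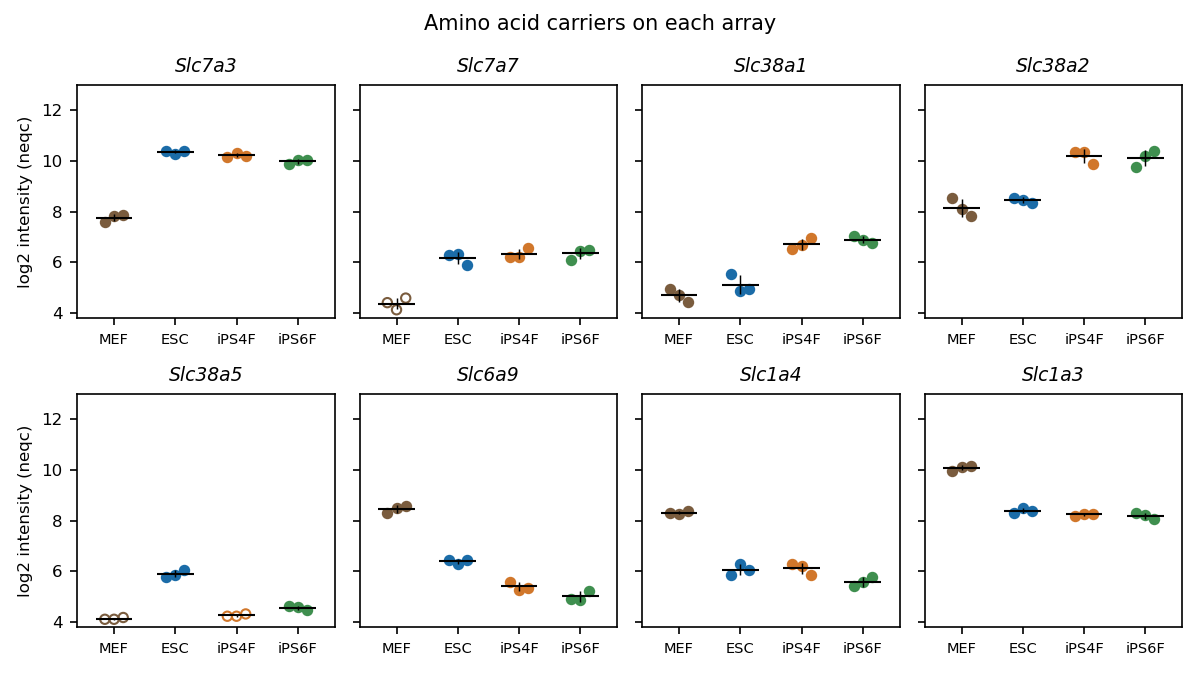
Normalised log2 intensity of 8 amino acid carriers on each array, with the group mean (bar) and SD (line). Open points mark groups not detected on all 3 arrays. On the probes shown, Slc38a1 and Slc38a2 were higher in both iPS groups than in ESC and MEF, and the other probes of Slc38a2 did not share this. Slc38a5 was higher in ESC than in the other 3 groups, and Slc6a9 stepped down from 8.45 in MEF to 5.01 in iPS6F.

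Members of the Slc38 family, sodium-coupled carriers of glutamine and other neutral amino acids, differed between iPS cells and ESC in both directions, while Slc38a4 (-0.07 in iPS4F and 0 in iPS6F) and Slc38a7 (0.30 and 0.04) passed in neither. Slc38a2 (SNAT2), whose transcript rises when cells lack amino acids, read 8.52, 8.10 and 7.83 in MEF and 8.55, 8.47 and 8.35 in ESC, but 10.36, 10.33 and 9.88 in iPS4F and 9.75, 10.20 and 10.37 in iPS6F. ESC and MEF overlapped (adjusted p 0.134), and both iPS groups lay above them. The differences from ESC were 1.73 ± 0.18 in iPS4F (3.33-fold, adjusted p 1.87e-06) and 1.65 ± 0.18 in iPS6F (3.15-fold, 2.32e-06). Its other 2 kept probes gave 0.09 and 0.16 in iPS4F minus ESC and 0.42 and -0.03 in iPS6F minus ESC, so the difference rests on 1 probe. Against MEF, at least 1 of these other probes had the opposite sign in each iPS group.

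Slc38a1 (SNAT1), a neighbour of Slc38a2 on chromosome 15, read 5.55, 4.88 and 4.97 in ESC, 6.52, 6.67 and 6.95 in iPS4F and 7.04, 6.88 and 6.76 in iPS6F. It was higher than in ESC by 1.58 ± 0.17 in iPS4F (adjusted p 2.75e-06) and by 1.76 ± 0.17 in iPS6F (6.80e-07), and all 3 of its probes gave that direction, at 0.85 and 0.66 in iPS4F and 0.92 and 0.68 in iPS6F for the other 2. In MEF it had 4.71 ± 0.25. Slc38a5 (SNAT5), on the X chromosome, showed the opposite order. It read 5.79, 5.88 and 6.07 in ESC, was undetected on all MEF and iPS4F arrays and read 4.64, 4.59 and 4.49 in iPS6F. It was at least 2.83-fold higher in ESC than in MEF, at least 2.94-fold lower in iPS4F than in ESC, and lower in iPS6F than in ESC by -1.34 ± 0.10 (2.53-fold, adjusted p 5.43e-08). The mixed sex of the ESC cannot be told apart from the other differences between ESC and the male groups here.

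Smaller differences between iPS cells and ESC ran in both directions. Slc43a1 (LAT3), which carries leucine and other large neutral amino acids, was higher in iPS4F than in ESC by 0.84 ± 0.13 and in iPS6F by 0.65 ± 0.13. Slc7a6 (y+LAT2), a further exchanger of cationic for neutral amino acids, was at -0.68 ± 0.12 and -0.71 ± 0.12. With median scaling its adjusted p-values were 0.363 and 0.13, and its differences less the median of all genes were -0.6 and -0.49. Slc1a5 (ASCT2), the main glutamine exchanger, was detected in iPS4F and iPS6F only, at 4.70 ± 0.17 and 4.79 ± 0.17, at least 1.18-fold and 1.25-fold above ESC, which is near the detection limit. Slc3a2, the heavy chain that carries several Slc7 proteins to the membrane, had 4.53 in MEF and 4.86 in ESC, with 4.42 in iPS4F and 4.62 in iPS6F. Slc7a11, the cystine importer, was lower in ESC than in MEF by -0.42 ± 0.13 (4.83 against 4.41). Slc38a10 had 2 kept probes of opposite sign against MEF in both iPS groups. Slc7a1 was on the array but did not meet the rule, and Slc7a5 had no named probe here.

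Of 11 tested non-carrier genes of amino acid sensing and use, 6 were higher and 3 lower in ESC than in MEF, and 8 were higher and 2 lower in each iPS group, where 76.5%, 78.9% and 78.6% of all genes were called in ESC, iPS4F and iPS6F. Gldc, the glycine decarboxylase of the mitochondrial glycine cleavage system, was undetected in MEF at 4.35 ± 0.07 and had 11.20 ± 0.11 in ESC, 11.80 ± 0.14 in iPS4F and 11.49 ± 0.17 in iPS6F. Phgdh, the first enzyme of serine synthesis, was higher than in ESC by 1.27 ± 0.17 in iPS4F and 1.55 ± 0.17 in iPS6F. Sesn2, a leucine sensor, was higher by 1.07 ± 0.17 and 1.20 ± 0.17. Atf4, the transcription factor of the amino acid response, had 9.83 ± 0.11 in MEF and 8.70, 9.01 and 8.90 in ESC, iPS4F and iPS6F, and its iPS minus ESC differences did not pass (adjusted p 0.0714 and 0.227). Rragc, a GTPase that links amino acids to mTORC1, was lower in ESC by -1.68 ± 0.13.

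Mitochondrial carriers changed in both directions. Of 29 members against MEF, 10 rose and 9 fell in ESC, 14 rose and 11 fell in iPS4F, and 14 rose and 8 fell in iPS6F. That is 65.5%, 86.2% and 75.9% called, beside 76.5%, 78.9% and 78.6% of all genes. Among the 22 detected on all arrays, 10 were higher and 4 lower in ESC, 13 and 5 in iPS4F, and 14 and 3 in iPS6F, where 46.0%, 42.9% and 42.7% of all genes detected on 12 arrays were higher. With median scaling, 4 of the 29 were higher and 10 lower in ESC than in MEF, 14 and 6 in iPS4F, and 12 and 8 in iPS6F. That scaling moved the median of all genes in ESC minus MEF from 0.08 to -0.14. Less that median, the median of the 29 was -0.06 in the main analysis and -0.11 with median scaling.

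Slc25a5, the ADP/ATP carrier Ant2 of dividing cells, read 11.23, 10.87 and 10.85 in MEF and 12.39, 12.39 and 12.50 in ESC. It had 12.23 ± 0.11 in iPS4F and 12.15 ± 0.06 in iPS6F, above every MEF array, and ESC minus MEF was 1.44 ± 0.12 (2.72-fold, adjusted p 5.11e-09). The gene is X-linked, and the part of sex in the ESC difference was not tested. The other ADP/ATP carriers Slc25a4 and Slc25a31 were on the array but did not meet the rule. Slc25a15, which exchanges ornithine for citrulline, read 5.99, 5.62 and 5.74 in MEF and 7.98, 7.90 and 7.92 in ESC (2.15 ± 0.13, 4.43-fold, adjusted p 1.23e-10), with 8.0 and 7.85 in the iPS groups. Its second kept probe gave 0.31 in ESC minus MEF. Slc25a33, a pyrimidine nucleotide carrier, had 6.59 ± 0.08 in MEF and 8.22 ± 0.09 in ESC, with 8.69 ± 0.19 in iPS4F and 8.59 ± 0.07 in iPS6F. Slc25a26, the importer of S-adenosylmethionine, rose from 5.60 in MEF to 6.58 in ESC, a call that was lost with median scaling (0.54, adjusted p 0.063).

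The mitoferrins carry iron into mitochondria. Slc25a28 (mitoferrin 2) read 7.63, 8.03 and 8.13 in MEF and 9.10, 9.13 and 9.25 in ESC, a difference of 1.23 ± 0.16 (adjusted p 2.71e-06), and had 9.43 ± 0.15 and 9.27 ± 0.35 in iPS4F and iPS6F. It thus ran opposite to most of the iron and zinc carriers outside the mitochondria. Slc25a37 (mitoferrin 1), known from red cell precursors, had 5.32, 5.30, 5.42 and 5.74 in MEF, ESC, iPS4F and iPS6F, and its ESC minus MEF difference was -0.02 (adjusted p 0.91).

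**Figure D4:**
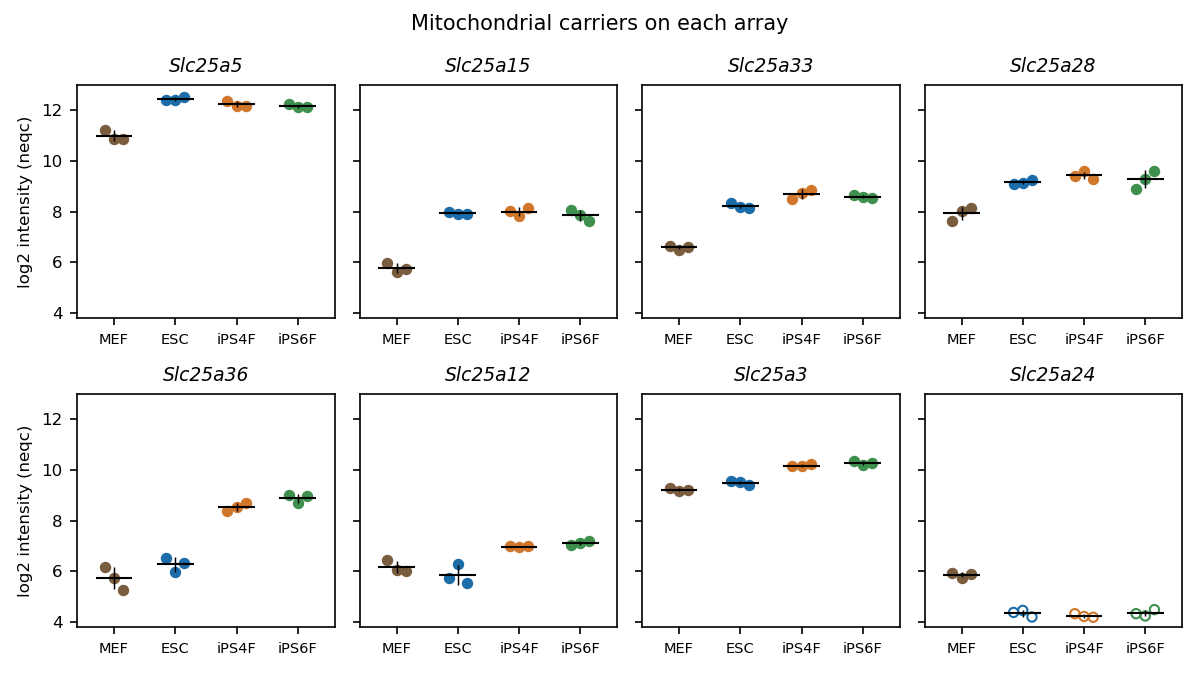
Normalised log2 intensity of 8 mitochondrial carriers on each array, with the group mean (bar) and SD (line). Open points mark groups not detected on all 3 arrays. Slc25a5, Slc25a15, Slc25a33 and Slc25a28 were high in all pluripotent groups, Slc25a36 was high in the iPS groups alone at 8.53 and 8.89, and Slc25a24 was detected on all arrays of MEF alone.

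Slc25a36, which carries pyrimidine nucleotides like Slc25a33, was the member with the highest difference between iPS cells and ESC. It read 6.16, 5.73 and 5.29 in MEF, 6.54, 5.96 and 6.33 in ESC, 8.38, 8.53 and 8.68 in iPS4F and 9.01, 8.68 and 8.97 in iPS6F. MEF and ESC overlapped (difference 0.55 ± 0.19, adjusted p 0.0136, and 0.698 with median scaling), and all iPS arrays lay above both. The differences from ESC were 2.25 ± 0.19 in iPS4F (4.77-fold, adjusted p 1.40e-07) and 2.61 ± 0.19 in iPS6F (6.11-fold, 2.50e-08). Its other 2 kept probes gave the same direction with smaller sizes, 0.91 and 0.29 in iPS4F and 0.99 and 0.58 in iPS6F. With the mean of its probes the differences were 1.15 and 1.39.

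Slc25a12 and Slc25a3 were also higher in both iPS groups than in ESC on the probe used, by less. Slc25a12 (aralar), the aspartate-glutamate carrier of the malate-aspartate shuttle, read 5.74, 6.29 and 5.56 in ESC, 7.0, 6.95 and 6.99 in iPS4F and 7.03, 7.13 and 7.21 in iPS6F. It was higher than in ESC by 1.12 ± 0.16 (adjusted p 3.76e-05) and 1.26 ± 0.16 (9.58e-06), and its second probe gave 0.14 and 0.12. Slc25a13, the related carrier citrin, was detected on all arrays of iPS4F alone, at 4.68 ± 0.26. Slc25a3, the phosphate carrier, had 9.21 ± 0.06 in MEF and 9.49 ± 0.07 in ESC, with 10.16 ± 0.05 in iPS4F and 10.26 ± 0.07 in iPS6F, and was higher than in ESC by 0.67 ± 0.10 and 0.77 ± 0.10. The second Slc25a3 probe gave -0.31 and -0.43, so its probes opposed each other.

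Carriers lower in pluripotent cells included Slc25a24, an ATP-Mg/phosphate carrier. It read 5.94, 5.76 and 5.90 in MEF but went undetected in both ESC and iPS4F, at least 2.64-fold and 2.85-fold lower. Slc25a44, a branched-chain amino acid carrier, had 6.87 ± 0.18 in MEF and 5.86 ± 0.23 in ESC, with 5.35 ± 0.23 in iPS4F and 5.56 ± 0.20 in iPS6F. Slc25a10, the dicarboxylate carrier, was lower in ESC by -0.98 ± 0.14. Slc25a16 was lower in iPS4F than in ESC (-0.69 ± 0.12), and Slc25a32, linked to folate and flavin adenine dinucleotide transport, was undetected in iPS6F and at least 1.45-fold below ESC. With median scaling both calls were lost, at adjusted p-values of 0.927 and 0.0897. Less the median of all genes, the 2 differences were then -0.42 and -0.56. Slc25a1, the citrate carrier, and Slc25a20, the carnitine-acylcarnitine carrier, had probes of opposite sign between iPS4F and ESC. Of 7 tested genes of the mitochondrial membrane outside the Slc25 family, 5 were higher and 1 lower in ESC than in MEF, and 5 higher and none lower in each iPS group by limma. The shares over all genes were 40.3% up and 36.3% down for ESC, 39.8% and 39.1% for iPS4F, and 39.2% and 39.4% for iPS6F. Ppif, the cyclophilin of the permeability transition pore, had 7.83 ± 0.09 in MEF and 10.36 ± 0.09 in ESC, with 10.46 ± 0.02 in iPS4F and 10.33 ± 0.09 in iPS6F, and the porin gene Vdac1 rose by 0.81 ± 0.10 in ESC.

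**Figure D5:**
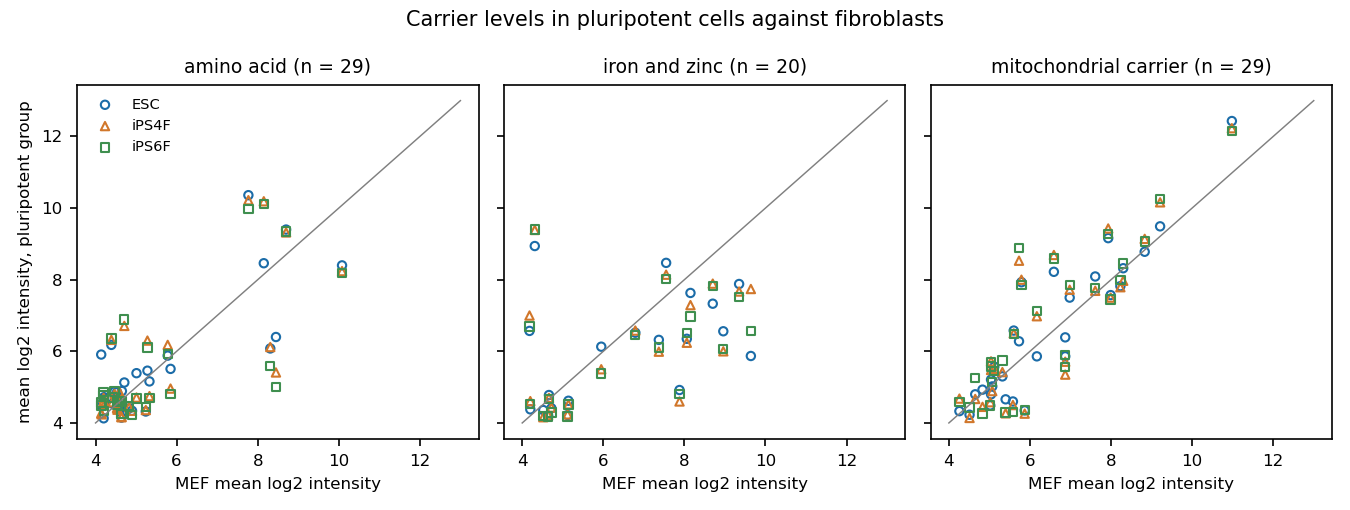
Mean normalised log2 intensity in ESC (circles), iPS4F (triangles) and iPS6F (squares) against the MEF mean, 1 point per carrier and group, for 29 amino acid, 20 iron and zinc and 29 mitochondrial carriers. Points below the line were dimmer than in MEF. In the iron and zinc panel Slc39a4, at 4.31 in MEF and 8.94 in ESC, lies far above the line and most other points lie below it.

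Among the 105 members with other substrates, 37 were higher and 46 lower in ESC than in MEF, so 79% were called (35.2% higher and 43.8% lower), close to the 76.5% of all genes (40.3% and 36.3%). Slc4a3 (AE3), a chloride-bicarbonate exchanger, read 5.86, 6.26 and 6.00 in MEF and 8.81, 8.97 and 8.84 in ESC, a difference of 2.84 ± 0.15 (7.14-fold), and all 3 of its probes gave that direction. Its relative Slc4a2 (AE2) ran opposite, with 8.96 ± 0.13 in MEF and 5.93 ± 0.18 in ESC (-3.03 ± 0.13, 8.16-fold lower). Slc24a3, a potassium-dependent sodium-calcium exchanger, read 7.83, 7.91 and 7.98 in MEF, was undetected on all pluripotent arrays and was at least 10.9-fold lower in ESC. Slc35a2, the X-linked UDP-galactose carrier of the Golgi, fell by 2.92 on the log2 scale in ESC. Slc10a3, also X-linked and related to bile acid carriers, fell by 2.35. Slc29a1, the nucleoside carrier ENT1, rose by 2.34, Slc52a3, a riboflavin importer, was at least 5.76-fold higher, and Slc51a, a subunit of an organic solute carrier, was at least 4.36-fold higher.

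Between iPS cells and ESC the other substrates gave both directions with large sizes. Slc35f2, whose human counterpart imports the drug YM155, was undetected in MEF, read 5.60, 5.53 and 5.51 in ESC, and stood at 7.32, 7.53 and 7.80 in iPS4F and 7.55, 7.55 and 7.49 in iPS6F. The difference from ESC was 2.00 ± 0.12 in iPS4F (4.01-fold, adjusted p 2.99e-09) and 1.98 ± 0.12 in iPS6F (2.83e-09). Slc46a3, a lysosomal carrier, was higher by 1.49 ± 0.20 and 1.40 ± 0.20. Slc51a read 6.36, 6.79 and 6.44 in ESC and 4.22 to 4.73 on the iPS arrays, a difference of -2.11 ± 0.14 in iPS4F (adjusted p 1.68e-08) and -2.07 ± 0.14 in iPS6F. Slc47a1 (MATE1), an exporter of organic cations, was lower by -1.83 ± 0.12 and -1.72 ± 0.12, and Slc52a3 by -1.37 ± 0.12 and -1.33 ± 0.12. Slc9b1, a sodium-hydrogen exchanger relative, was lower by -1.28 ± 0.12 and -1.17 ± 0.12. Slc35f2, Slc46a3, Slc51a, Slc47a1, Slc52a3 and Slc9b1 were named by a rule that took only calls whose ESC and iPS arrays did not overlap. Slc29a1 was lower in iPS4F than in ESC by -0.76 ± 0.12 on the probe used, but its second probe gave 1.03, so no direction is given for it there.

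Several members were read by more than 1 kept probe. Of the called members with other kept probes, all probes gave the same sign for 35 of 40 in ESC minus MEF, for 40 of 47 in iPS4F minus MEF, for 41 of 46 in iPS6F minus MEF, for 20 of 29 in iPS4F minus ESC and for 22 of 30 in iPS6F minus ESC. Across the 183 genes, which are not independent replicates, Pearson correlations between arrays were 0.982 to 0.993 within groups. The median correlation was 0.985 between iPS4F and iPS6F, 0.929 between ESC and iPS4F, 0.923 between ESC and iPS6F, and 0.701, 0.671 and 0.654 between MEF and ESC, iPS4F and iPS6F.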

How the data were processed

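Total RNA of 12 samples was hybridised to Illumina bead arrays with 45281 probes. The deposited scanner intensity values are summarised per probe and not normalised, and each has a deposited detection p-value, per the file headers. The authors' deposited log2 table was an alternative; the submitters' processing notes name BeadStudio 3.2, RMA and lumi. Here intensities were background-corrected from the detection p, offset by 16, quantile-normalised and log2-transformed (neqc, limma 3.58.1 in R 4.3.3). Probes that every one of a group's 3 arrays detected (p below 0.05) were kept (17563, of which 15294 had 1 symbol), and the kept probe of highest mean stood for each of 10096 genes. On the platform annotation, 34885 probes had 1 symbol, 18 several and 10378 none. One mean per group was fitted with lmFit and eBayes, and p-values for each of the comparisons were adjusted by Benjamini-Hochberg over all genes, tested on simulated data first. The number of arrays limits the precision. Named genes were the 5 highest and 5 lowest non-overlapping calls per family and comparison, 4 and 4 of the other members, and genes listed for their roles; a few more were named after their values were seen. Members, lists and tests were chosen with earlier results of these data known.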

Additional observations from a re-analysis of the deposited data

Results flagged for a closer look

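Slc40a1, the iron exporter, differed between the iPS groups when each was set against ESC: iPS6F minus ESC less iPS4F minus ESC was -1.19 on the log2 scale, and limma's test of that difference gave an adjusted p of 1.02e-05. All 3 iPS6F arrays lay below all 3 iPS4F arrays. The gene has 1 kept probe of 2, so no second probe bears on it.

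For 5 members every iPS4F array lay on one side of the ESC mean and every iPS6F array on the other. The same pattern was not counted over all genes, and the rule leaves out the scatter of the ESC arrays. The log2 difference iPS6F minus iPS4F was 0.26 for Slc25a14, an uncoupling protein relative, 0.48 for Slc25a20, the carnitine-acylcarnitine carrier, 0.29 for Slc25a29, a carrier of basic amino acids, 0.58 for Slc25a42, a carrier of coenzyme A, and 0.30 for Slc45a3. Tested by limma across all genes, none of these differences passed, at adjusted p-values of 0.335 for Slc25a14, 0.104 for Slc25a20, 0.311 for Slc25a29, 0.104 for Slc25a42 and 0.315 for Slc45a3. Slc25a29 was near the detection limit, with 0 of 3 iPS4F, 0 of 3 ESC and 1 of 3 iPS6F arrays detecting it, so its side of ESC is not settled. With median scaling Slc25a20 was above ESC in both iPS groups, by 0.36 in iPS4F and 0.44 in iPS6F. Less the median of all genes under that scaling, these values were -0.03 and 0.35. Its kept probes also had opposite signs in iPS4F minus ESC. Slc25a14 is X-linked, and ESC alone were of mixed sex.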

How the results depend on the processing

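Quantile against median scaling was the choice that moved most. With median scaling 32 members were higher in ESC than in MEF (60 in the main analysis), 69 were higher and 7 lower in iPS4F than in ESC (34 and 37), and 8 were lower in iPS6F than in ESC (39), with 6 amino acid and 3 iron and zinc members called there (12 and 7). It turned the sign of Slc25a3 in ESC minus MEF (-0.02) and, in iPS4F minus ESC, of Slc39a6 (0.13), Slc30a7 (0.35), Slc25a44 (0.08), Slc25a1 (0.31) and Slc25a20 (0.36). These values include the shift of all genes. Less the median of all genes they were, in the same order, 0.11, -0.26, -0.04, -0.3, -0.07 and -0.03, each with the sign of the main analysis. The mean of a gene's kept probes turned Slc11a2 in ESC minus MEF (-0.43), Slc11a1 in iPS4F and iPS6F minus MEF (-0.11 and -0.17), Slc25a20 in iPS4F minus MEF (0.04), and Slc39a7 and Slc25a1 in iPS6F minus ESC (0.16 and 0.02). Requiring a detection p under 0.01 on all 12 arrays left 80 members, and fewer genes were therefore called: 28 higher and 35 lower in ESC minus MEF (6 amino acid, 9 iron and zinc), 32 and 36 in iPS4F minus MEF (9 and 10), 32 and 37 in iPS6F minus MEF (8 and 11), 18 and 21 in iPS4F minus ESC (4 amino acid) and 21 and 22 in iPS6F minus ESC (6 amino acid). In iPS6F minus iPS4F, 2 members in place of 1 were lower with an offset of 50, with that stricter filter, with the mean of kept probes and with the replicate block, and the authors' values gave 1 higher member, an amino acid carrier. Leaving out 1 array gave 1 to 3 lower members and 0 to 1 amino acid calls in that comparison, with 3 and 1 without iPS4F replicate 3 and 2 without ESC replicate 2. Same-numbered arrays did not deviate together (correlations of their deviations -0.176 to 0.14), so replicate numbers were not taken to pair the samples. The block weakened 2 calls of single genes, Slc30a7 in iPS4F minus ESC and Slc25a37 in iPS6F minus ESC. Of 660 counts, 30 were the main ones, 597 stayed within 1.5 times of them and 33 did not. Where no cause is given above, the cause was not tested. Signal over background limits the dim members, whose fold changes are compressed or given as bounds.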
